A study of Homo sapiens with 12 samples.

Results

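Small patches of the promoter mark H3K4me3 lying inside wide stretches of acetylated, H3K4me1-marked chromatin were examined in HepG2 cells, a widely used human liver cancer line. Of the 24446 H3K4me3 peaks on chromosomes 1 to 22 and X, 1145 (4.68%) were members. Members were selected on the measured peak widths and summit positions: each was narrower than 1000 bp and had its summit, the position of highest signal, inside both an H3K4me1 peak and an H3K27ac peak of 3000 bp or more. The data were chromatin immunoprecipitations with sequencing (ChIP-seq), which recover the DNA wrapped around histones that carry a chosen modification. There were 12 libraries in 4 groups of 3, for H3K27ac, H3K4me1, H3K4me3 and a control whose titles name an input and whose antibody label names an anti-mouse IgG. All groups were the same HepG2 cells with no treatment, so the labels tell the groups apart by antibody. Per the labels, 300 ng of sheared DNA entered each immunoprecipitation, libraries had 10 to 16 PCR cycles, and paired reads were of 51 bp. The series' design text gives the purpose of the marks as choosing among variants that could be causal.

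Methylation of lysine 4 on histone H3 is written by SET1 and MLL family complexes. The trimethylated form, H3K4me3, is best known from the first nucleosomes downstream of active gene starts, where CpG-rich DNA helps to recruit these complexes. The monomethylated form, H3K4me1, is laid down at enhancers largely by KMT2C and KMT2D, and it also borders promoters on either side of the H3K4me3. Acetylation of lysine 27, H3K27ac, is written by p300 and CBP at both kinds of element when they are active. Enhancers and promoters share an open core from which nucleosomes are removed, so that the marks sit on the nucleosomes to either side of it. Low levels of H3K4me3 can also be found at strongly active enhancers, many of which are transcribed.

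The deposited values were 1 peak list per mark, made from pooled replicates going by the list names. Values of single libraries were not analysed here. Library depth and replicate spread are therefore unknown, and none of the differences described could be tested against replicate error. Shares are given with 95% Wilson intervals and medians with 95% order-statistic intervals. Both cover counting error only and treat neighbouring peaks as independent. Positions are those of build hg19, counted from 1. Genes and DNA sequence at these positions were not analysed here, so whether a member lies at an annotated gene start is not known, and the hepatocyte identity of the cells was not checked against marker genes.

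The selection can be followed step by step. Of all H3K4me3 peaks, 8814 (36.1%) were narrower than 1000 bp. The summits of 4461 of these (50.6%) lay in an H3K27ac peak of any width, and 1218 of the 4461 (27.3%) in one of 3000 bp or more. Of the 1218, 1145 (94.0%) also had the summit inside an H3K4me1 peak, which left 73 without it. At the limits of the rule, the widest member was 998 bp (chr10:7582876-7583873), while a 1000 bp peak at chr4:183801150-183802149 stayed outside. The narrowest acetylated peak accepted was 3005 bp wide (chr16:53543639-53546643), and the widest one refused was 2999 bp (chr10:7727108-7730106). The H3K4me1 peak at the summit had no width limit. It was 3000 bp or wider for 701 members (61.2%, 58.4 to 64.0).

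The members were weak H3K4me3 peaks. Their median signal value, the authors' own measure of peak strength, was 2.19 (2.13 to 2.24), with a middle range of 1.82 to 2.88 and extremes of 1.25 and 13.7. The median over all H3K4me3 peaks was 13.3, and 968 members (84.5%) fell under the lower quartile of that list, 3.45. A signal value above the list's median was reached by 1 member. Much of this follows from the rule, because narrow peaks as a whole had a median of 2.82 against 35.4 for peaks of 1000 bp or more. The lowest −log10 p-value in the H3K4me3 list was 2.03, and the median of the members was 16.3. The −log10 q-value was at least 5 in 955 members (83.4%, 81.1 to 85.4), and the q-value exceeded 0.05 in 8. Member widths had a median of 563 bp (542 to 584).

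**Figure D1:**
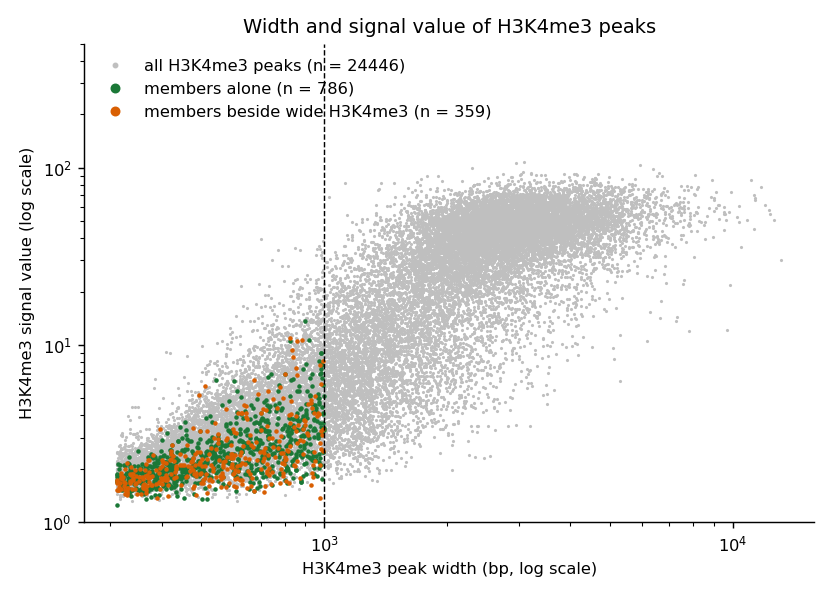
Width in bp against signal value, both on log axes, for all 24446 H3K4me3 peaks (grey), members in acetylated peaks without a wide H3K4me3 peak (green, n = 786) and members that share theirs with one (orange, n = 359). The dashed line marks the 1000 bp limit. All members lie left of it, as the rule requires, and low in signal value, from 1.25 to 13.7.

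The strongest members were well above the rest. The highest signal value, 13.7, belonged to chr11:1714557-1715452, a peak of 896 bp whose −log10 p-value was 660.2. It sat towards the edge of a 5029 bp acetylated peak, 3281 bp from the H3K27ac summit. At chr10:60727412-60728330 the signal value was 10.6, and there the H3K27ac summit was 39 bp away in a 6017 bp peak. Both had no wide H3K4me3 peak in the same acetylated peak. The other three of the top 5 had one close by. A member at chr19:49140991-49141813 had a signal value of 10.9 and lay 447 bp from a wide H3K4me3 peak. Those at chr19:34849365-34850245 and chr1:31538683-31539538, with 10.6 and 10.5, lay 446 and 447 bp from one. These 3 thus adjoined a wide H3K4me3 peak, whereas the nearest one was 68111 and 205205 bp from the 2 described before them.

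This difference divided the members as a whole. An acetylated peak that held a member also held the summit of a wide H3K4me3 peak, meaning 1000 bp or more, for 359 members (31.4%, 28.7 to 34.1). These are called members beside wide H3K4me3. The remaining 786 had no wide H3K4me3 summit in their acetylated peak and are called members alone. As background, counted per acetylated peak, 58.6% of all 7931 H3K27ac peaks of 3000 bp or more held a wide H3K4me3 summit. Of the 1003 such peaks that held a member, 323 (32.2%) did. Across the 23 chromosomes the share of members beside wide H3K4me3 averaged 31.1% (SD 10.1), from 19.4% on chromosome 4 to 58.8% on X, where there were 17 members. All 1145 carry H3K4me3 by the rule, and the classes are defined by the presence of a wide H3K4me3 summit in the acetylated peak.

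The median distance from a member summit to the nearest wide H3K4me3 peak was 785 bp (657 to 923) for members beside one, and 350 of the 359 lay within 5000 bp. For members alone it was 22318 bp (19106 to 24771). Of the 786, 83 (10.6%, 8.60 to 12.9) were within 5000 bp of a wide peak whose summit lay outside their acetylated peak. The H3K4me3 signal values of the 2 classes overlapped widely, with medians of 2.24 (2.18 to 2.33) alone and 2.08 (1.99 to 2.16) beside. Median widths were 569.5 bp (543 to 597) and 552 bp (516 to 590). H3K4me1 at the summit was also close, with median signal values of 7.02 (6.79 to 7.28) and 7.37 (7.11 to 7.70) and median peak widths of 3743 and 3612 bp. The surrounding acetylation differed: its peak had a median width of 4465.5 bp (4349 to 4647) alone and 6727 bp (6216 to 7375) beside, and a median signal value of 21.1 and 29.3.

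Members were spread thinly over acetylated peaks. They occupied 1003 of the 7931 H3K27ac peaks of 3000 bp or more (12.6%). Of these 1003, 680 had no wide H3K4me3 summit and 323 did. A lone member was found in 875, while 115 held 2, 12 held 3 and 1 held 4. Where several members shared an acetylated peak, neighbouring summits were a median of 1128 bp apart (924 to 1389, n = 142), never less than 456 bp. Of the 128 peaks with several members, 33 held a wide H3K4me3 summit as well.

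The acetylated peak with 4 members was chr8:22209431-22219889, 10459 bp wide with a signal value of 22.8. Its members had H3K4me3 signal values of 1.69, 1.67, 1.82 and 2.84 in order of position. The last, which was the strongest, had its summit 4 bp from the H3K27ac summit, and the others lay 7358, 3924 and 951 bp away. The next H3K27ac peak to the right held a wide H3K4me3 peak with a signal value of 70.3. At chr5:172277992-172288868 an acetylated peak of 10877 bp had 3 members close together, with signal values of 2.29, 1.52 and 1.91, whose summits were 415, 140 and 784 bp from its summit, and 5245, 5800 and 6444 bp from the H3K4me1 summit. The peak at chr1:32714922-32718821, of 3900 bp, also held 3, at 557, 75 and 686 bp. In the first of these peaks the strongest member was the one nearest the H3K27ac summit, whereas in the other two the nearest member was the weakest, at 1.52 and 1.54.

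The strongest acetylation around members without other H3K4me3 was found on chromosomes 12 and 1. An H3K27ac peak at chr12:6401104-6407585 had a signal value of 68.7 and held a member with an H3K4me3 signal value of 2.43, 814 bp from its summit. Another at chr1:26675407-26681443 also had 68.7, and its member, with 2.86, lay 28 bp from the H3K27ac summit and 30 bp from the H3K4me1 summit. The third, chr12:53317651-53322857, with 67.4, held 3 members of 2.06, 2.13 and 2.19, at 2253, 1296 and 8 bp from the H3K27ac summit. These 5 H3K4me3 signal values, at the strongest acetylation, all lay within the middle range of the members. The widest acetylated peaks with a member were instead beside wide H3K4me3. They were chr16:87870495-87897478 with 26984 bp, chr22:36744915-36769786 with 24872 bp and chr20:368189-391489 with 23301 bp, and each held 1 member, at 785, 423 and 5038 bp from a wide H3K4me3 peak.

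**Figure D2:**
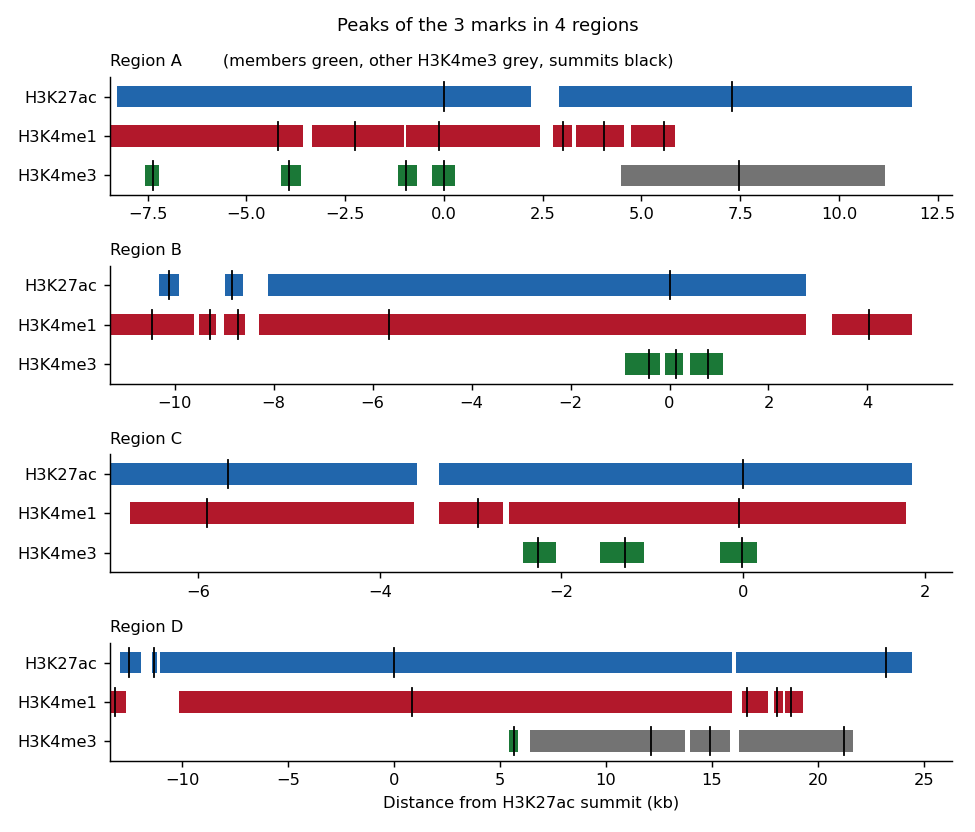
Peaks of the 3 marks in 4 named regions, by distance in kb from the H3K27ac summit: the acetylated peak with 4 members on chromosome 8 (A), those with 3 members on chromosomes 5 (B) and 12 (C), and the widest one on chromosome 16 (D). Bars are peaks to scale, black lines are summits, members are green and other H3K4me3 peaks grey. In A and C a member lies 4 and 8 bp from the H3K27ac summit, and in D the member lies at the edge of a run of wide H3K4me3 peaks.

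Within the acetylated peak, members alone gathered at the point of strongest acetylation. Their median distance to the H3K27ac summit was 103 bp (85 to 131), and 457 of 786 (58.1%, 54.7 to 61.5) were within 200 bp of it. The stretch within 200 bp of the summit made up a median of 8.98% of the acetylated peak. The H3K27ac summit fell inside the member itself in 483 cases (61.5%, 58.0 to 64.8). Members beside wide H3K4me3 had a median distance of 2034 bp (1803 to 2261), with 46 of 359 (12.8%, 9.75 to 16.7) within 200 bp. In 269 of the 359 (74.9%, 70.2 to 79.1) the H3K27ac summit lay inside a wide H3K4me3 peak, so that it could not also lie inside the member.

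Over all members, 503 (43.9%, 41.1 to 46.8) were within 200 bp of the H3K27ac summit. The background was 46.6% of the 6066 H3K4me3 peaks of any width in an acetylated peak of 3000 bp or more, and 67.2% of the 18685 in an acetylated peak of any width. Closeness to the H3K27ac summit is therefore not particular to the members as a whole. It was also seen where the acetylated peak was narrower than 3000 bp: there, 82.3% (80.8 to 83.7) of 2620 narrow H3K4me3 peaks with H3K4me1 were within 200 bp. Those acetylated peaks had a median width of 1110.5 bp, which leaves less room. Wide H3K4me3 peaks with H3K4me1 at the summit, in acetylated peaks of 3000 bp or more, gave 45.6% (42.7 to 48.6) of 1124. The 73 narrow peaks in such acetylated peaks without H3K4me1 at the summit gave 33 (45.2%, 34.3 to 56.6).

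The separation between the classes held at each width of the acetylated peak. From 3000 to under 4000 bp, members alone had a median distance of 78 bp (n = 296) and those beside wide H3K4me3 1106 bp (n = 55). From 4000 to under 6000 bp the values were 115 and 1802.5 bp, and from 6000 to under 10000 bp 162 and 2767 bp. In peaks of 10000 bp and over they were 708.5 bp (88 to 1407, n = 46) and 4055 bp (2261 to 5077, n = 86), so members alone were less tightly placed in the widest peaks. Among members alone, stronger ones lay closer: from the lowest to the highest quartile of H3K4me3 signal value, the share within 200 bp was 47.7%, 54.1%, 62.2% and 68.5%, with intervals of 40.9 to 54.7 and 61.7 to 74.6 at the ends. For members beside wide H3K4me3 the shares were 6.67%, 10.0%, 19.1% and 15.6%. There the intervals at the ends, 3.09 to 13.8 and 9.50 to 24.4, overlapped. Among the 585 members alone that had no other member in their acetylated peak, 378 (64.6%, 60.7 to 68.4) were within 200 bp. Among the 201 that shared their acetylated peak with other members, 79 (39.3%, 32.8 to 46.2) were, with a median distance of 598 bp (446 to 688). Neighbouring member summits were never less than 456 bp apart, so at most 1 member of an acetylated peak could be within 200 bp. The share per member is therefore held down by the spacing and cannot be set against that of lone members. Counted per acetylated peak, 79 of the 95 (83.2%, 74.4 to 89.4) had a member within 200 bp, with several members to count in each. Over chromosomes the share within 200 bp for members alone averaged 56.7% (SD 10.2), from 35.3% on chromosome 8 to 78.6% on chromosome 20.

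Examples of exact coincidence were chr20:17840056-17840483 and chr18:56193411-56194091, both alone, whose summits were 0 bp from the H3K27ac summit in acetylated peaks of 12718 and 4051 bp. The H3K4me1 summit was 3961 bp away at the first and 263 bp away at the second. The next closest, chr14:69250873-69251268, was beside wide H3K4me3 at 3020 bp and lay 1 bp from a strong H3K27ac summit with a signal value of 77.1.

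H3K4me1 summits were farther off. For members alone the median distance to the H3K4me1 summit was 570.5 bp (523 to 605), and 214 (27.2%, 24.2 to 30.4) were within 200 bp. The H3K27ac summit was the nearer of the 2 in 536 of 786 (68.2%, 64.9 to 71.4). The background was 73.3% (72.2 to 74.3) of the 6694 H3K4me3 peaks of any width with both marks at the summit, in acetylated peaks of any width. In acetylated peaks of 3000 bp or more, wide H3K4me3 peaks with H3K4me1 at the summit gave 60.1% (57.3 to 63.0) of 1124. The share over all members was 53.1% (50.2 to 56.0). For members beside wide H3K4me3 the order was turned around: the H3K4me1 summit was 547 bp away (478 to 627), and the H3K27ac summit was the nearer in 72 of 359 (20.1%, 16.2 to 24.5). Their H3K4me1 peaks had a median width of 3612 bp against 6727 bp for H3K27ac, which leaves less room. The same H3K4me1 peak held the H3K27ac summit in 129 of 359 (35.9%, 31.1 to 41.0). For members alone it did so in 653 of 786 (83.1%, 80.3 to 85.5). Distances to the H3K4me1 summit thus had overlapping intervals in the 2 classes, and the classes differed in where the acetylation peaked.

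Distances of members alone to the H3K27ac summit fell into a main group and a smaller one. From 0 to 99 bp there were 388 members and from 100 to 199 bp 69. Numbers then dropped to 20 and 16 in the next bins of 100 bp, and rose again to 32, 42 and 45 from 400 to 699 bp before falling to 26 and 14. In all, 36 (4.58%, 3.33 to 6.28) were at 200 to under 400 bp and 145 (18.4%, 15.9 to 21.3) at 400 to under 800 bp. The 585 members alone with no other member in their acetylated peak showed the same dip. Of these, 32 (5.47%) were at 200 to under 400 bp and 17.4% at 400 to under 800 bp. In acetylated peaks under 3000 bp the corresponding numbers were 220 and 186 of 2620 narrow H3K4me3 peaks, many of which lay in acetylated peaks too narrow for the larger distances. The share at 400 to under 800 bp was not particular to members. Among wide H3K4me3 peaks with H3K4me1 in acetylated peaks of 3000 bp or more, it was 19.5% of 481 with an H3K4me1 gap, as defined below. Without a gap it was 19.8% of 643.

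**Figure D3:**
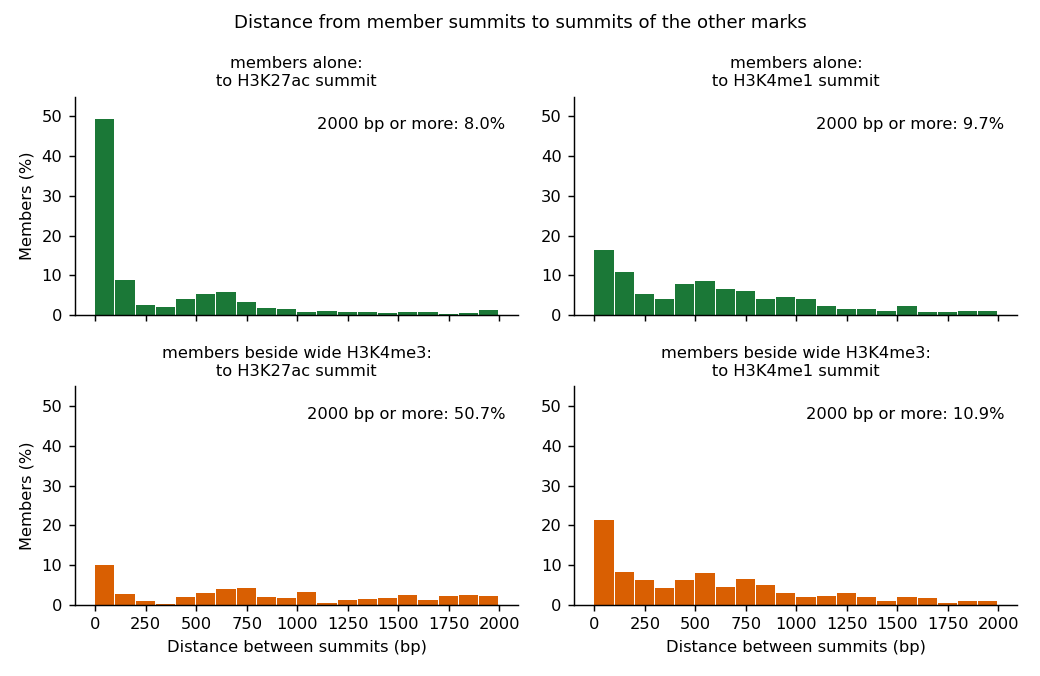
Distance in bp, in bins of 100 bp up to 2000 bp, from member summits to the summit of the H3K27ac peak (left) and of the H3K4me1 peak (right) that holds them, as a percentage of members alone (top, n = 786) and beside wide H3K4me3 (bottom, n = 359). Among members alone 49.4% fall in the first H3K27ac bin, followed by a dip at 200 to under 400 bp and a lower rise from 400 to under 800 bp.

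Gaps in H3K4me1 were found near the members. At the summit all members lie in H3K4me1 by the rule. At 300 bp to either side, 86.1% of positions beside members alone did so, and at 400 bp 86.1%, before the share returned to 94.3% at 700 bp. H3K27ac covered 99.7%, 99.4% and 98.0% of the same positions, but a high cover near the summit is built into the rule, which asks for an H3K27ac peak of 3000 bp or more and sets no minimum for H3K4me1. Members beside wide H3K4me3 showed a like dip, to 84.4% at 400 bp and back to 90.9% at 700 bp. A gap was counted where the H3K4me1 peak at the summit ended within 500 bp and another began at most 500 bp beyond.

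Such a gap was present at 320 members alone (40.7%, 37.3 to 44.2) and at 107 beside wide H3K4me3 (29.8%, 25.3 to 34.7). The gap began a median of 231.5 bp (215 to 245) from the summit of members alone and was a median of 193 bp wide (183 to 212). The H3K27ac summit lay inside the gap in 2 of 320 cases (0.625%, 0.172 to 2.25). In 213 of the 320 (66.6%, 61.2 to 71.5) the H3K27ac summit was within 200 bp of the member, against 244 of 466 (52.4%, 47.8 to 56.9) without a gap. An H3K27ac summit 400 to under 800 bp away was no more common with a gap than without. The counts were 55 of 320 (17.2%, 13.4 to 21.7) and 90 of 466 (19.3%, 16.0 to 23.1). In 53 of those 55 with a gap (96.4%, 87.7 to 99.0) the H3K27ac summit lay on the side of the gap, and all 53 lay across it. At these sites the H3K4me3 summit and the H3K27ac summit lay on opposite sides of an H3K4me1 gap. Once the H3K27ac summit was on the side of the gap, crossing followed largely from the limits. Gaps began within 500 bp and had a median width of 193 bp. The limits do not set the side.

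Gaps were not particular to members. The share was close at wide H3K4me3 peaks with H3K4me1 at the summit in acetylated peaks of 3000 bp or more, at 481 of 1124 (42.8%, 39.9 to 45.7), and lower at narrow H3K4me3 in narrower acetylated peaks, at 699 of 2620 (26.7%, 25.02 to 28.4). Among those with a gap, the H3K27ac summit was 400 to under 800 bp away in 94 and 59. It lay on the side of the gap in 69 (73.4%, 63.7 to 81.3) and 43 (72.9%, 60.4 to 82.6). It lay across the gap in 57 of 94 (60.6%, 50.5 to 69.9) and 39 of 59 (66.1%, 53.4 to 76.9). These intervals were below that of members alone. Members beside wide H3K4me3 gave 17 of 18 (94.4%, 74.2 to 99.0) for both, close to members alone. The share within 200 bp of the H3K27ac summit was also higher with a gap in other sets. It was 25.2% against 7.54% without a gap for members beside wide H3K4me3. The wide H3K4me3 peaks gave 51.4% and 41.4%. It was alike at narrow H3K4me3 in narrower acetylated peaks, at 83.1% and 82.0%. Both the definition of a gap and the distance limits of 400 and 800 bp were set once the data were known.

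**Figure D4:**
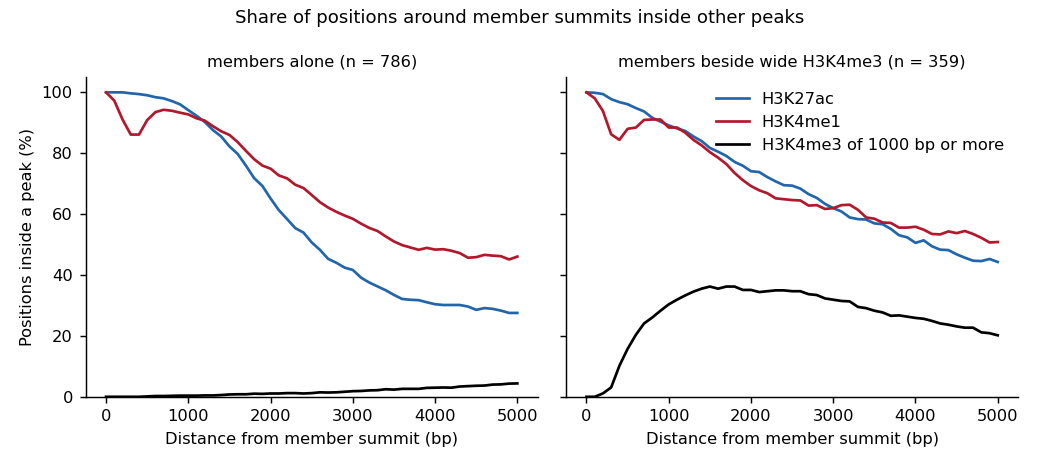
Percentage of positions inside an H3K27ac peak (blue), an H3K4me1 peak (red) or an H3K4me3 peak of 1000 bp or more (black) by distance in bp from member summits, averaged over both sides, for members alone (left) and beside wide H3K4me3 (right). The values of 100% at distance 0, and the high H3K27ac cover near it, follow from the rule. H3K4me1 dips to 86.1% at 300 to 400 bp from members alone, and wide H3K4me3 covers 35.1% of positions 2000 bp from members beside it.

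The extent of each mark around the members is bound by the rule, which sets a width minimum for the H3K27ac peak and none for the H3K4me1 peak, so the extents of the 2 marks are not compared. For members alone acetylation reached a median of 1627.5 bp (1571 to 1681) on the shorter side and 2841.5 bp (2754 to 2934) on the longer. H3K4me1 reached 816.5 bp (653 to 957) and 2660.5 bp (2528 to 2805). The depth of a summit, counted as 0 at the edge of the acetylated peak and 1 at its centre, had a median of 0.745 (0.729 to 0.768) for members alone and 0.542 (0.502 to 0.573) for those beside wide H3K4me3. Members alone were nearer to the H3K27ac summit than to the midpoint of its peak in 540 of 786 cases (68.7%, 65.4 to 71.8), against 113 of 359 (31.5%, 26.9 to 36.5).

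Acetylated peaks that carried a member had higher median signal values than those of like width that carried no H3K4me3. Peaks of 3000 bp or more without a wide H3K4me3 summit comprised 680 with a member, 2561 with no H3K4me3 summit and 42 with other narrow H3K4me3 only. Those with a member also hold H3K4me1 by the rule, whereas no H3K4me1 was asked of those without H3K4me3. From 3000 to under 4000 bp the median H3K27ac signal value was 16.9 (15.9 to 18.2, n = 269) with a member and 10.9 (10.5 to 11.3, n = 1250) without H3K4me3. From 4000 to under 6000 bp it was 21.4 (19.5 to 23.1, n = 262) against 14.9 (14.5 to 15.5, n = 912), and from 6000 to under 10000 bp 25.8 (22.05 to 30.2, n = 120) against 20.9 (19.8 to 22.3, n = 330), with intervals that overlapped slightly. At 10000 bp and over the medians were 34.6 (25.5 to 42.8, n = 29) and 25.2 (20.9 to 28.7, n = 69), again with overlapping intervals. Peaks with a wide H3K4me3 summit were higher still at 27.1, 30.0, 33.7 and 37.5 in the 4 classes. A higher value than without H3K4me3 was not particular to peaks with a member. With other narrow H3K4me3 only, the median from 3000 to under 4000 bp was 17.2 (13.4 to 24.2, n = 22). The wider classes held too few such peaks for a median.

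Within chromosomes, the median log2 H3K27ac signal value from 3000 to under 4000 bp was on average 0.66 higher with a member than with no H3K4me3 (SD 0.32 over 22 chromosomes, range -0.14 to 1.30), a ratio of 1.57. It was higher on 21 of the 22. From 4000 to under 6000 bp the difference was 0.47 (SD 0.39), positive on 20 of 22. The middle ranges overlapped, from 11.3 to 23.5 with a member and from 7.63 to 14.8 without in the narrowest class. Chromosomes with fewer than 3 peaks of either kind gave no value. Chromosomes are not replicates, and the control signal at these positions was not analysed here.

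**Figure D5:**
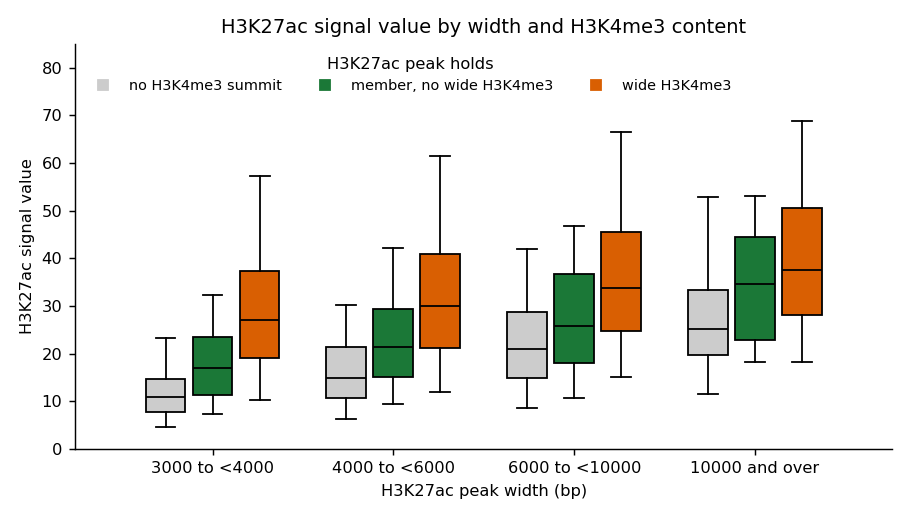
H3K27ac signal value of acetylated peaks of 3000 bp or more in 4 width classes, for peaks with no H3K4me3 summit (grey), with a member and no wide H3K4me3 (green) and with a wide H3K4me3 summit (orange). Boxes give the median and quartiles and whiskers the 5th and 95th percentiles. The green medians of 16.9, 21.4, 25.8 and 34.6 lie between the grey and orange ones in each class.

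Members were found on all 23 chromosomes, with 92 on chromosome 1 and 17 on X. As a share of the narrow H3K4me3 peaks of a chromosome they made up 13.2% on average (SD 3.27), from 7.04% on chromosome 15 to 21.0% on chromosome 22. Their median signal value varied little, from 1.88 on chromosome 4 to 2.70 on chromosome 15. The median −log10 p-value varied more, from 6.54 on X to 26.7 on chromosome 20. On both of these chromosomes the median signal value was close to that of all members, at 2.19 on X and 2.16 on chromosome 20.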

How the data were processed

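Peak lists of H3K27ac, H3K4me1 and H3K4me3 were used as deposited. Per the submitters' processing notes the tools include MACS2 and the build is hg19, while the version, the threshold and the use of the control libraries are not given in the sources used here. The signal value of each peak, its −log10 p-value and q-value, and its score (not used) were deposited by the authors, and what the signal is relative to is not stated. Signal values were compared only within a list.

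Peaks on chromosomes 1 to 22 and X were kept, and none of a list overlapped. A summit was the start of the peak plus its deposited offset. The 3000 bp minimum was read as bearing on the H3K27ac peak, and a minimum on H3K4me1 too was an alternative. No test was run, since the lists are pooled. Members, lists and comparisons were chosen with earlier results of these data known. Regions were named by rank of H3K4me3 signal value (5), of H3K27ac signal value where all H3K4me3 peaks were members (5), of members per H3K27ac peak (3), of its width (3), of closeness to its summit (3), and at the limits of the rule. Planned analyses of gene starts, marker genes, base composition and motifs were not run, since a genome and annotation of hg19 were not used here. Interval operations were tested on simulated data. Python 3.11.15, numpy 2.4.6, pandas 2.3.3, scipy 1.17.1 and matplotlib 3.10.9 were used.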

Additional observations from a re-analysis of the deposited data

How the results depend on the processing

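Depth is unknown, so weaker H3K4me3 patches may have gone uncalled. Over 9 results, 75 alternative values were computed: 45 stayed within the main interval or within 1.5 times the main count, and 30 moved. The cause was not tested, except that filters and limits change the number of members by construction. Alternatives for the split classes, and the analysis of gaps, were added after the data had been seen. No paired analysis was possible because the lists are pooled and no test was run. Results on gene starts and base composition were not run. In each of the 10 settings that gave both values, members alone were nearer the H3K27ac summit than members beside wide H3K4me3. The settings share most of their members, and the difference is partly bound to how the classes are defined.

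The number of members was 1 in the stronger 50% of each list, too few for other values, 570 with H3K27ac of 5000 bp or more and 701 with H3K4me1 of 3000 bp or more as well. The share beside wide H3K4me3 was 37.0% with H3K4me3 under 750 bp, 23.5% under 1500 bp, 22.2% with H3K27ac of 2000 bp or more, 44.6% with 5000 bp or more and 41.6% with H3K27ac peaks within 1000 bp joined. With the last 3 settings in the same order, the median distance of all members to the H3K27ac summit was 163, 776 and 676 bp and the median depth 0.716, 0.631 and 0.603. The median signal value was 2.35 where the −log10 q-value reached 5, 2.02 under 750 bp, 2.48 under 1500 bp, 2.12 with H3K27ac of 5000 bp or more, 2.07 with the whole peak inside both others and 2.26 with joined peaks. For members alone the median distance was 159.5 bp with H3K27ac of 5000 bp or more, and the share within 200 bp was 62.7% with 2000 bp and 52.8% with 5000 bp or more. For members beside, the median distance was 2462 bp under 1500 bp, 2704 bp with H3K27ac of 5000 bp or more, 2372 bp with wide H3K4me1 as well, 2315 bp with the whole peak inside and 2330 bp with joined peaks. Gaps were found at 24.3% of members alone with limits of 300 bp and 51.3% with 1000 bp.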
